A study of Mus musculus with 56 samples.

Results

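Mup3, Mup7, Mup20 and Mup21, which encode major urinary proteins, were examined together with Hsd3b5, Elovl3 and Selenbp2 in the livers of female mice fed by day or by night. These 7 genes, of 25415 listed in the gene table, were picked as growth-hormone-dependent liver genes whose daily mean level changed with the feeding regimen. The daily mean is therefore given for them as a description, without a test. All 7 had usable values. In the present values Mup20 went against that description, since its daily mean was the same under both regimens to within its error.

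Liver RNA was sequenced from 56 female C57BL/6J mice aged 9 weeks, kept in a cycle of 12 h light and 12 h dark with no other genetic or drug treatment. After a week of free feeding, food was offered for 7 days only in the light phase (daytime-restricted feeding, DRF) or only in the dark phase (nighttime-restricted feeding, NRF, the reference). Livers were taken at 7 zeitgeber times, ZT0 to ZT24 in steps of 4 h, where ZT0 is lights on and ZT24 is the same clock time a day later, with 4 mice per regimen and time. The study asked how a feeding schedule opposed to the light cycle resets gene rhythms in tissues.

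Growth hormone acts on the liver through its receptor, the kinase JAK2 and the transcription factors STAT5A and STAT5B. It is released in spaced pulses in male rodents and more evenly in females, and the pulsed pattern raises a male set of liver genes to which major urinary protein genes, Hsd3b5, Elovl3 and Selenbp2 belong. In female liver these genes are therefore low, and a second, female set, with members of the Cyp2b, Cyp3a and Sult2a families, is high.

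Levels are given as scaled counts: the number of counts rebuilt from the deposited values, divided by a factor for each library. The 56 libraries held 290567000 to 683913000 rebuilt counts, the lowest in NRF ZT16 replicate 3. Replicates of a group correlated at 0.982 to 0.995 over all genes. The 5 hepatocyte markers in the table summed to 25682 to 45941 scaled counts under DRF and 23416 to 39238 under NRF, and 2 of them were lower and 1 was higher in daily mean under DRF. None of the markers looked for of Kupffer, endothelial, stellate, bile duct or B and T cells passed the test of daily mean. Of 4 pancreas markers 1 was in the table, at 1.58 to 2.75 under DRF and 1.795 to 4.73 under NRF, and it was lower under DRF. The part of these markers in the results was not tested. None of 4 kidney markers was in the table. Xist was present in every liver, and none of 4 Y-linked genes looked for was in the table.

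The 4 Mup genes are on chromosome 4 and the other genes on chromosomes 3 and 19 (GRCm38). Promoter entries in RefSeq (GRCm38.p6) matched 5 of the 7 genes, all except Mup20 and Elovl3. The 250 bases before the RefSeq start of Mup3, Mup7 and Mup21 are shown because these genes lie in the same cluster and differed in how far they moved. Capitals mark the longest run that all 3 share, of 14 bases.
Mup3, chr4:62087318-62087567, minus strand: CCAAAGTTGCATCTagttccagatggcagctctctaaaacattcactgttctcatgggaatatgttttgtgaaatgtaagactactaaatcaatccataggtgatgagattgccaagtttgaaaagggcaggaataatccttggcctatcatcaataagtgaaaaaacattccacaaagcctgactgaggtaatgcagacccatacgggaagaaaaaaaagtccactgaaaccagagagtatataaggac
Mup7, chr4:60070476-60070725, minus strand: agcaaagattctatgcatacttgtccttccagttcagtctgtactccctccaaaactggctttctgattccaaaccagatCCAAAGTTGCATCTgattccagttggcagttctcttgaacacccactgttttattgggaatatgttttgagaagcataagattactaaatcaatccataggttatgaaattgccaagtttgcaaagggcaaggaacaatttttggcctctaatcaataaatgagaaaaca
Mup21, chr4:62150842-62151091, minus strand: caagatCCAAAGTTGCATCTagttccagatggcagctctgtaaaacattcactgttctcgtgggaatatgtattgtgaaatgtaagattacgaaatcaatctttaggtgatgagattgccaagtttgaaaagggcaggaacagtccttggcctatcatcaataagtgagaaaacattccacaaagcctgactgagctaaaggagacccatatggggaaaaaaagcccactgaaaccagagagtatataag
The Mup3 and Mup21 windows were identical at 228 of 244 aligned bases (93.4%). Mup7 matched Mup3 at 143 of 169 bases (84.6%) and Mup21 at 144 of 173 (83.2%). In the Mup7 window the shared run begins at -170 from the RefSeq start, against -250 in Mup3 and -244 in Mup21. The Mup3 and Mup21 windows reach into the GENCODE gene bodies, which begin at 62087342 and 62150863 on this strand. The Mup7 window adjoins its gene body, which begins at 60070475. These positions and aligned lengths therefore depend on the start given to each gene.

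The windows of Selenbp2 and of its paralog Selenbp1 are shown because these paralogs, on the same chromosome, differed in direction between the regimens. Capitals mark their longest shared run, of 69 bases.
Selenbp2, chr3:94693323-94693572, plus strand: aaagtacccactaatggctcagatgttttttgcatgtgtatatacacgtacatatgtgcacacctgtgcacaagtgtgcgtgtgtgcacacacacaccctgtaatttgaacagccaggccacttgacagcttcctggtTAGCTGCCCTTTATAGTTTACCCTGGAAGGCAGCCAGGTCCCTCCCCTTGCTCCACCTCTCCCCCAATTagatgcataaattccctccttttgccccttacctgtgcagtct
Selenbp1, chr3:94932833-94933082, plus strand: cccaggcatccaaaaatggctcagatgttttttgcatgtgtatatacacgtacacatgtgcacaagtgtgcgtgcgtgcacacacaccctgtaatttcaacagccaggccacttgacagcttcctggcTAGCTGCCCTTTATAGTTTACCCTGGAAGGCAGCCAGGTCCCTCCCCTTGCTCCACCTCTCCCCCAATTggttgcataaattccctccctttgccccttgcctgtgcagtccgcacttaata
These windows were identical at 220 of 230 aligned bases (95.7%). The Selenbp2 window reaches into the GENCODE gene body, which begins at 94693556. The Hsd3b5 window is the one that RefSeq gives, from 98645535 to 98645784. It does not adjoin the GENCODE gene body, which on this minus strand begins at 98630252. Whether liver uses the RefSeq start was not tested. Capitals in this window mark the D-box core, a letter pattern bound by the clock output factor DBP and its relatives.
Hsd3b5, chr3:98645535-98645784, minus strand: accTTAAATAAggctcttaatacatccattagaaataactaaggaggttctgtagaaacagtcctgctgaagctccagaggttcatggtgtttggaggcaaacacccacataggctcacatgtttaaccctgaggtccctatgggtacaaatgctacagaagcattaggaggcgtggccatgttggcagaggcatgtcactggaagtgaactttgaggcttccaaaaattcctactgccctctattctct

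Letter patterns were searched on both strands of each window. The STAT5 pattern TTCNNNGAA, present in 7.02% of 32851 promoters, was in none of the 5 windows, nor was the E-box CACGTG (6.02%) or AGGTCA (14%), a nuclear receptor site. The glucocorticoid receptor core ACANNNTGT (5.84%) was found once in Selenbp2, at -157 from the start. The same letters were at -167 in Selenbp1. TTANNTAA, the D-box core (5.43%), was found once in the Hsd3b5 window, at -247 from the RefSeq start. No match says only that the letters are not in these 250 bases.

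Most of the Mup genes are close copies, so single values rest on how reads were shared out. Of the 150-base words of Mup7 transcripts, 67.2% also occur in transcripts of 15 other genes, most of all in Mup1. For Mup20 the share was 31.1%, all of it with the pseudogene Mup-ps19. None of the words of Mup3, Mup21 or Elovl3 was shared. Selenbp2 shared 5.97% of its words with Selenbp1, and Hsd3b5 shared 1.21% with 2 genes. Mup7 is therefore the least certain of the 7 as a single gene, while Mup3 and Mup21 do not share words of that length.

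Major urinary proteins are small lipocalins that carry pheromones and are made in liver and excreted in urine. Mup3 (ENSMUSG00000066154, chromosome 4, 62083476 to 62087342, minus strand) was by far the most abundant of the 7. Per kilobase of transcript it stood at 654 ± 142 scaled counts under DRF and 1111 ± 271 under NRF (SD, n = 28). In scaled counts it ranged from 442 to 1032 with a median of 661 under DRF, and from 664 to 1784 with a median of 1156 under NRF. All 28 DRF livers lay below the NRF median and 14 lay below the lowest NRF liver. The daily mean, taken as the regimen term of a model with a 24-h cosine for each regimen, was lower under DRF by a log2 difference of -0.74 ± 0.08 (SE). In bulk liver, fewer cells expressing a gene and less RNA per cell cannot be told apart. All 4 DRF livers were below all 4 NRF livers at 5 of 7 times for Mup3, Hsd3b5 and Selenbp2, where 1.01% of all genes had 4 or more such times. Over the 7 genes this held for 19 of 49 gene and time pairs, against 8.63% over all genes. Nothing is read from these counts, since the genes were chosen on this contrast.

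At ZT24 Mup3 had 615, 602, 612 and 629 scaled counts under DRF. Under NRF it had 1054, 1212, 1647 and 1380 at that time. The DRF livers were nearly equal there, whereas the NRF livers were spread and all higher. The ratio of NRF to DRF means was lowest at ZT4, 1.34, and highest at ZT24, 2.15.

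Mup7 (ENSMUSG00000073842, chromosome 4, 60066469 to 60070475, minus strand) varied most widely of the urinary protein genes. It ranged from 0.0591 to 17.2 scaled counts with a median of 1.75 under DRF, and from 0.941 to 73.8 with a median of 12.4 under NRF. The log2 difference in daily mean was -2.07 ± 0.33. At ZT0 the DRF livers had 0.710, 0.744, 0.901 and 0.207. The NRF livers had 17.8, 7.63, 34.6 and 9.97, all above them, and the means differed 27.3-fold, over a DRF mean of only 0.641. At ZT4 the ratio was only 1.18, with NRF values of 1.06, 2.69, 3.996 and 7.17. Mup7 thus did not overlap between regimens at 3 of 7 times, ZT0, ZT8 and ZT12.

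Mup20 (ENSMUSG00000078672, chromosome 4, 62050234 to 62054158, minus strand), also called darcin, encodes a male pheromone. It had 54.0 ± 17.2 scaled counts under DRF and 54.4 ± 18.0 under NRF (SD, n = 28), a log2 difference of 0.02 ± 0.11. At ZT20 it had 68.3, 78.7, 70.5 and 72.7 under DRF and 72.7, 66.4, 69.0 and 42.1 under NRF. Apart from the last NRF liver these were alike, and no time separated the regimens. Its NRF to DRF ratio fell on either side of 1, from 0.749 at ZT12 to 1.70 at ZT0. Mup21 (ENSMUSG00000066153, chromosome 4, 62147932 to 62150863, minus strand) ranged from 1.65 to 3.93 with a median of 2.36 under DRF and from 1.72 to 9.99 with a median of 3.29 under NRF. Its log2 difference was -0.33 ± 0.11, and the livers overlapped at all 7 times. At ZT0 it had 2.59, 2.15, 3.49 and 1.93 under DRF and 8.27, 2.44, 6.36 and 4.09 under NRF, where 3 of 4 NRF livers were above every DRF liver.

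Hsd3b5 (ENSMUSG00000038092, chromosome 3, 98618634 to 98630252, minus strand) is a member of the 3-beta-hydroxysteroid dehydrogenase family of liver that acts as a ketosteroid reductase. It ranged from 0.0291 to 3.88 scaled counts with a median of 0.677 under DRF, and from 1.10 to 70.7 with a median of 7.29 under NRF. The log2 difference of -2.14 ± 0.26 is understated for its lowest livers by the 1 added before the logarithm, and with 0.1 added it was -3.12. All 28 DRF livers were below the NRF median and 19 were below the lowest NRF liver.

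At ZT24 Hsd3b5 had 0.265, 0.0291, 0.282 and 0.417 scaled counts under DRF. At the same time it had 2.04, 12.6, 47.5 and 13.5 under NRF, so that the means differed 76.2-fold without overlap. The DRF mean was only 0.248, with the lowest liver resting on 15 rebuilt counts, and the liver at 47.5 carries much of the NRF mean. The size of this ratio is therefore uncertain. At ZT20 the DRF livers had 3.26, 0.796, 0.769 and 1.18. The NRF livers had 7.34, 6.65, 6.60 and 2.16, the last of which was below 1 DRF liver, and the ratio there was 3.79, the lowest of the day.

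Elovl3 (ENSMUSG00000038754, chromosome 19, 46131897 to 46135694, plus strand) encodes an elongase of very long chain fatty acids. It had the smallest level per kilobase under NRF, 1.56 ± 0.943, and stood beside Hsd3b5 at the bottom under DRF, 0.945 ± 0.549 against 0.653 ± 0.649. Its last bases overlap Pitx3 on the other strand. The log2 difference in daily mean was -0.39 ± 0.11.

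Selenbp2 (ENSMUSG00000068877, chromosome 3, 94693556 to 94704413, plus strand) encodes a selenium-binding protein of the liver. It ranged from 9.53 to 24.7 scaled counts with a median of 14.6 under DRF and from 13.0 to 118 with a median of 32.8 under NRF. All 28 DRF livers lay below the NRF median, and the log2 difference was -1.17 ± 0.14. The NRF livers were more widely spread. The SD was 3.78 at a mean of 15.0 under DRF and 20.4 at a mean of 37.6 under NRF. The NRF SD includes NRF ZT0 replicate 1, the highest liver at 118. At ZT8 it had 11.9, 15.9, 9.53 and 13.9 scaled counts under DRF and 37.8, 29.2, 29.4 and 68.9 under NRF, without overlap. At ZT4 it had 22.6, 14.9, 18.2 and 14.5 under DRF and 13.0, 19.2, 40.1 and 24.02 under NRF, with the lowest of the 8 livers an NRF liver.

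In order of level per kilobase, Mup3 came first and Mup20 next under both regimens, and their ranges did not overlap each other. Under NRF they were followed by Mup7 at 17.1 ± 15.4, Selenbp2 at 16.6 ± 8.99, Hsd3b5 at 7.61 ± 9.79, Mup21 at 5.52 ± 2.84 and Elovl3. Each of these overlapped its neighbour in range. Under DRF the order was Selenbp2 at 6.62 ± 1.66, Mup21 at 3.798 ± 0.971, Mup7 at 3.33 ± 3.8004, Elovl3 and Hsd3b5, again with each overlapping its neighbour. Mup7 moved from the third place to the fifth and Hsd3b5 from the fifth to the last.

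**Figure D1:**
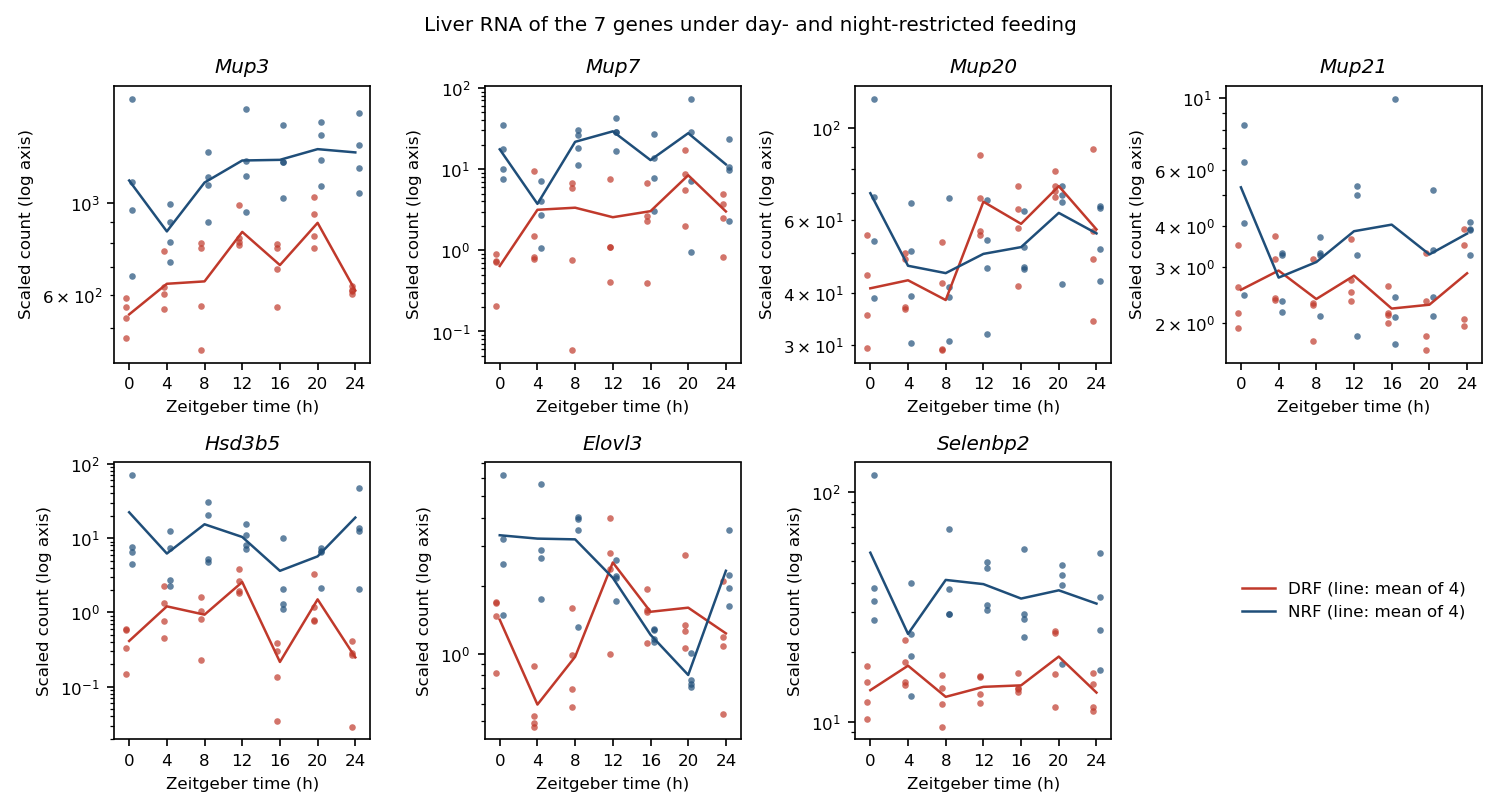
Scaled counts (log axis) of the 7 genes against zeitgeber time, 1 point per liver, with a line through the means of 4 livers, DRF in red and NRF in blue. The DRF line is below the NRF line at every time for Mup3, Mup7, Hsd3b5 and Selenbp2, the lines of Mup20 cross, and those of Elovl3 cross between ZT8 and ZT12 and again after ZT20.

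The rule that chose the genes used the daily mean and not the time of day, so rhythms were tested. The choice was still made with earlier results of these data known. Under DRF, a 24-h rhythm was called for 3 of the 7 genes by limma with Benjamini-Hochberg adjustment over 25316 genes, against 37.7% of all genes. They were Mup20 (adjusted p = 0.0131, amplitude 0.41 ± 0.11 on the log2 scale, peak at 17.1 ± 0.916 h), Mup3 (adjusted p = 0.0226, 0.25 ± 0.07, 15.2 ± 1.09 h) and Elovl3 (adjusted p = 0.0256, 0.36 ± 0.11, 15.9 ± 1.07 h). None of the 3 calls was left without the livers of replicate number 3, and 1 was left without those of number 4. Without those of number 1, Elovl3 was not called (limma adjusted p = 0.0643) and Hsd3b5 was (0.0258). Mup7, Mup21, Hsd3b5 and Selenbp2 had adjusted p from 0.134 to 0.731.

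Under NRF only Elovl3 of the 7 genes was called, against 38.5% of all genes, with an adjusted p of 0.000939, an amplitude of 0.59 ± 0.12 and a peak at 5.52 ± 0.679 h. Mup3 (adjusted p = 0.102, amplitude 0.25 ± 0.09) and Mup20 (0.147, 0.26 ± 0.11, against 0.41 ± 0.11 under DRF) did not pass. That is not a difference between the regimens: in the test of the difference itself Mup3 had an adjusted p of 0.652 and Mup20 of 0.185. Elovl3 alone of the 7 genes passed that test, with an adjusted p of 2.09e-05, where 38.8% of all genes did.

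At ZT4 Elovl3 had 0.492, 0.881, 0.528 and 0.474 scaled counts under DRF and 2.67, 1.75, 5.67 and 2.88 under NRF. At ZT8 it had 0.699, 1.603, 0.991 and 0.580 under DRF and 3.54, 4.05, 1.32 and 3.96 under NRF. All NRF livers were higher at ZT4, and 3 of 4 were higher than every DRF liver at ZT8. At ZT12 the values were 2.37, 4.004, 2.7995 and 0.992 under DRF and 2.60, 1.71, 2.16 and 2.21 under NRF, with no separation. At ZT16 they were 1.56, 1.12, 1.53 and 1.93 under DRF and 1.13, 1.29, 1.27 and 1.16 under NRF. By ZT20 the order had turned, with 1.34, 2.75, 1.06 and 1.26 under DRF, all above the NRF values of 0.735, 0.708, 1.01 and 0.766.

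At ZT0 Elovl3 had 1.70, 1.47, 0.821 and 1.67 under DRF and 6.21, 3.22, 1.49 and 2.50 under NRF. At ZT24 it had 2.11, 1.19, 0.540 and 1.08 under DRF and 3.52, 1.96, 2.23 and 1.62 under NRF. Elovl3 at ZT20 was the only 1 of 49 gene and time pairs in which all 4 DRF livers were above all 4 NRF livers, which over all genes held for 9.40% of pairs. The lower daily mean of Elovl3 under DRF thus joined hours of opposite sign. The ratio of NRF to DRF means was 5.46 at ZT4, 0.855 at ZT12 and 0.502 at ZT20. Without any 1 of the 56 livers, the adjusted p of this rhythm difference stayed between 3.94e-06 and 6.21e-05. The call of the DRF rhythm alone was lost without ZT4 replicate 1, 3 or 4, at an adjusted p of up to 0.0525.

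**Figure D2:**
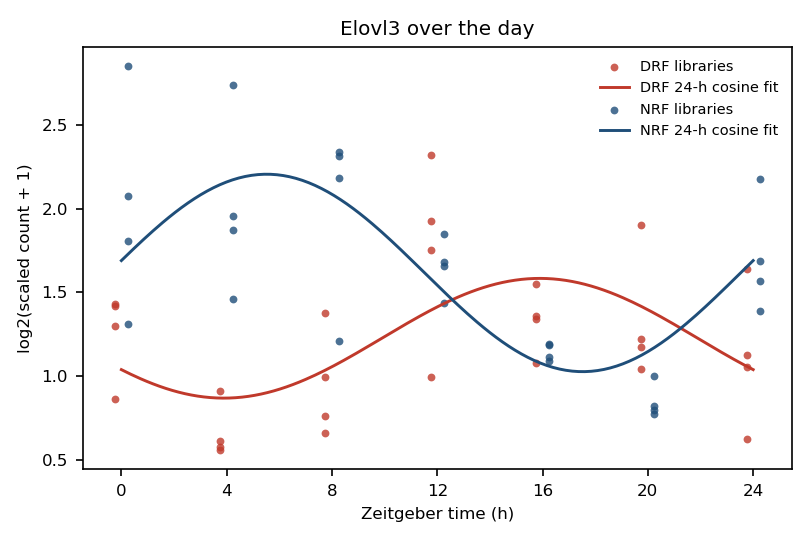
Elovl3 as log2(scaled count + 1) against zeitgeber time, 1 point per liver, with the 24-h cosine fitted to the 28 livers of each regimen. The NRF fit peaks at 5.52 h and the DRF fit at 15.9 h.

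As a control for time of day, ZT24 was compared with ZT0 within each regimen. None of the 7 genes passed under DRF, where 3.04% of all genes did, or under NRF, where 7.74% did (limma, 14 groups in 1 model). At an unadjusted p under 0.05 none of the 7 passed either, and the change from ZT0 to ZT24 differed between the regimens for none of them, against 0.00395% of all genes. The largest differences were those of Mup7, 1.18 ± 0.79 under DRF and -0.67 ± 0.79 under NRF on the log2 scale. Mup3 had 0.20 ± 0.19 under DRF and 0.30 ± 0.19 under NRF. The NRF value ranged from 0.07 to 0.55 when single livers were left out, and Mup3 passed under NRF without the livers of replicate number 1 (limma adjusted p = 0.0213).

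A single liver stood out. NRF ZT0 replicate 1 had the highest level of all 56 livers for 5 of the 7 genes, Mup3, Mup20, Hsd3b5, Elovl3 and Selenbp2, and the next to highest for Mup21. It had 70.7 scaled counts of Hsd3b5, against 4.50, 6.42 and 7.59 in the other livers of its group. It had 118 of Selenbp2, against 27.6 to 38.0, and 118 of Mup20, against 39.0 to 68.5. For Mup7 it ranked only 12th, at 17.8.

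Outside the 7 genes, chosen after its values were seen, the same liver had the most Slco1a1, a male-biased organic anion transporter, at 210 against 4.35 to 147 in the other 55. It had the least of the female-biased genes Cyp2b9 (1133 against 1559 or more), Cyp2b13 (362 against 633 or more) and Sult2a3 (0.0306 against 0.7305 or more). Not every sex-biased gene was at an extreme there: the female-biased Cyp2b10, at 169, was 20th from the lowest, and the male-biased Serpina1e, at 2338, was 5th from the highest. Xist, at 138, was inside the range of the other livers. So were the summed markers of Kupffer cells (590 against 494 to 1009), endothelial cells (414 against 338 to 475), stellate cells (749 against 551 to 823) and bile duct cells (34.9 against 20.6 to 40.8). Without this liver the daily mean difference was -2.05 for Hsd3b5, -1.12 for Selenbp2, -0.72 for Mup3, -0.35 for Elovl3, -0.30 for Mup21, 0.05 for Mup20 and -2.04 for Mup7.

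**Figure D3:**
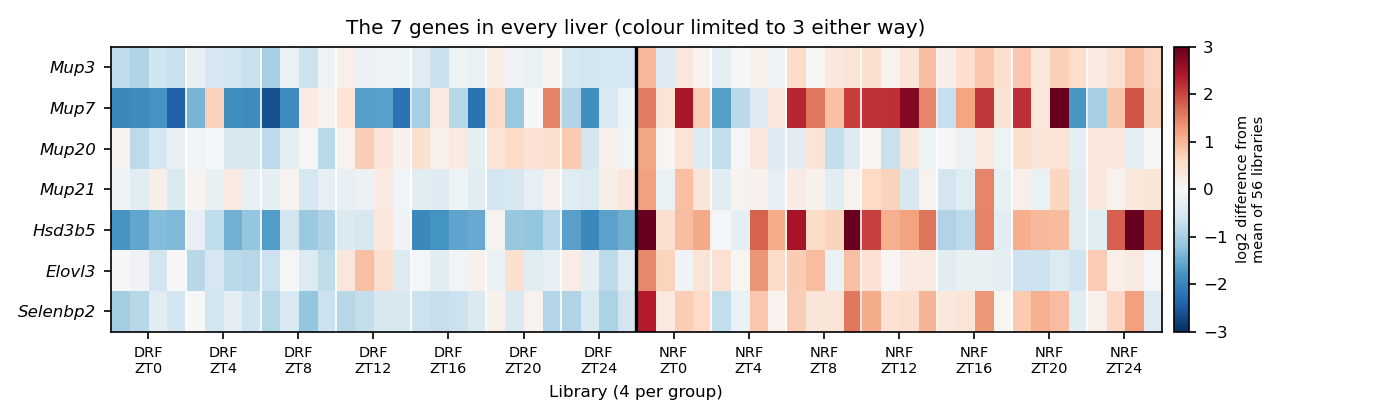
Each of the 56 livers (columns, 4 per regimen and time) for the 7 genes (rows), coloured by the log2 difference from the mean over all livers, red higher and blue lower. The first NRF column, NRF ZT0 replicate 1, is red for all 7 genes, and Mup7 and Hsd3b5 hold the strongest colours.

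Whether livers high in 1 gene were also high in another was asked among livers of the same regimen and time, after the group means were removed. Of 21 pairs, 10 passed a two-sided permutation test within groups with Benjamini-Hochberg adjustment over the pairs, and the median r was 0.316. Hsd3b5 and Selenbp2 went together most closely, with Pearson's r = 0.785 (permutation p = 1e-05, the smallest possible, adjusted 0.0001) and Spearman's rho = 0.747 (permutation p = 2e-05, adjusted 0.00021) over 56 livers. The r was 0.839 within NRF and 0.466 within DRF. Without the 2 livers farthest from the Hsd3b5 median it was 0.772, with the group means of all 56 livers kept. Without NRF ZT0 replicate 1, with its group mean taken anew, it was 0.716. The kept means still hold the livers left out, so values without the 2 farthest are not a full check, here or below.

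Mup3 went with Hsd3b5 at r = 0.697 (rho = 0.658, permutation p = 1e-05 for each, adjusted 0.0001 and 0.00021), with 0.650 within DRF, 0.739 within NRF and 0.604 without the 2 farthest livers. Mup3 and Selenbp2 had r = 0.572 (permutation p = 0.0006, adjusted 0.0042) and rho = 0.484 (permutation p = 0.00148, adjusted 0.00941), and r = 0.434 without the 2 farthest. Mup20 and Elovl3 had r = 0.510 (permutation p = 0.00238, adjusted 0.00833) and rho = 0.470 (permutation p = 0.00215, adjusted 0.00941), at 0.404 without the 2 farthest. Mup7 and Hsd3b5 had r = 0.440 (permutation p = 0.00163, adjusted 0.00833) and rho = 0.448 (permutation p = 0.00224, adjusted 0.00941), at 0.422 without them, but 0.181 within DRF.

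These 5 pairs passed whichever of the 56 livers was left out. The other 5, Mup3 with Mup7 and Mup21, Mup7 with Mup21, and Mup21 with Hsd3b5 and Selenbp2, had r from 0.368 to 0.477 and adjusted permutation p from 0.00833 to 0.0284, and only 5 pairs passed without NRF ZT16 replicate 3. Mup20 was not called with Mup3, Mup7, Mup21, Hsd3b5 or Selenbp2, and Elovl3 only with Mup20. Within DRF, r was 0.0239 for Mup7 with Mup21 and 0.103 for Mup21 with Selenbp2. Mup7 and Selenbp2 had -0.369 within DRF and 0.512 within NRF, so that their pooled value of 0.251 joins opposite signs. The difference between regimens in r was not tested.

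**Figure D4:**
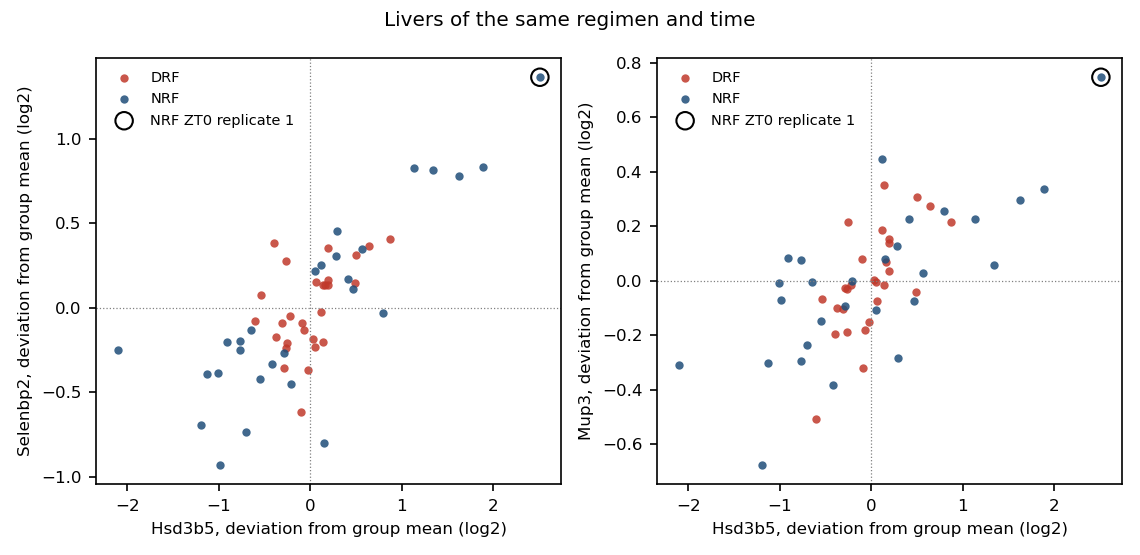
Deviation of each of the 56 livers from the mean of its regimen and time, on the log2(scaled count + 1) scale, for Selenbp2 (left) and Mup3 (right) against Hsd3b5. The points rise together at r = 0.785 and 0.697, and the circled liver, NRF ZT0 replicate 1, lies at the upper end of each.

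Lists of other genes with known sex bias were then set beside Hsd3b5 in the same way, a look added after the data had been seen. Among 15 male-biased genes, a list without Mup genes, 14 had a positive within-group r with Hsd3b5, with a median of 0.384. Among 16 other Mup genes 11 were positive, with a median of only 0.0594. Among 29 female-biased genes, 24 had a negative r, with a median of -0.427, whereas over 25309 genes 12340 were negative and the median was 0.00675. The lowest were sulfotransferases of steroids and bile acids, Sult2a1 (-0.828) and Sult2a2 (-0.812), and the highest in the male list was Slco1a1 (0.746). Without NRF ZT0 replicate 1, 25 of 29 were negative and the median was -0.213.

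The pattern of signs of the male-biased and female-biased lists was found within both regimens for Hsd3b5. Of the other Mup genes, 8 of 16 were positive within NRF (median 0.0235) and 9 of 16 within DRF (median 0.0213). Within NRF, 25 of 29 female-biased genes were negative (median -0.485), and within DRF 24 of 29 were (median -0.180). For Selenbp2 the counts were 25 of 29 within NRF (median -0.431) and 16 of 29 within DRF (median -0.0677). The genes of a list are not independent of each other, and these counts are descriptions.

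Genes whose levels ran most like each of the 7 over all 56 livers, the regimen difference included, were ranked by Pearson's r of log2(scaled count + 1). Slco1a1 was among the top 3 for Mup3 (0.871), Hsd3b5 (0.876), Selenbp2 (0.836) and Mup7 (0.722). Selenbp2 was led by BC021767 (0.932), a transcribed pseudogene nearby on chromosome 3, and Serpina1e (0.890), and Hsd3b5 was followed by Serpina12 (0.858) and Acsm2 (0.858). Mup3 was followed by Ces3a (0.854) and C9 (0.846), and Mup7 by Mup15 (0.723) and XLOC_006828 (0.705). Their median r with all genes was between 0.00380 and 0.0271.

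Mup20 and Mup21 had lower values than these, while the values of Elovl3 were above those of Mup7. Mup20 was led by Mup-ps19 (0.681), which shares its words, Hao1 (0.680) and 1700066M21Rik (0.604). Mup21 was led by C8b (0.657), Mup18 (0.631) and Hsd3b3 (0.621). Elovl3 was led by AC127342.1 (0.821), its overlapping neighbour Pitx3 (0.782) and Crot (0.782), a peroxisomal carnitine transferase.

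For genes outside the 7, the daily mean was tested. The gene lists were drawn up with earlier results of these data known, so counts within them are read as descriptions. Over all genes, 683 (2.70%) were lower and 1048 (4.14%) higher under DRF (limma adjusted p under 0.05), and the median log2 difference was -0.00. On the deposited values, which are compressed at high levels, 335 were lower and 924 higher. Of 16 other Mup genes in the table, 5 were lower, none was higher and 11 were not called, with a median log2 difference of -0.60 and 15 of 16 negative. They were Mup19 (-1.36 ± 0.15, adjusted p = 4.2e-09), Mup15 (-1.05 ± 0.17, 2.52e-05), Mup18 (-0.60 ± 0.09, 9.18e-06), Mup9 (-0.91 ± 0.20, 0.00212) and Mup11 (-0.75 ± 0.24, 0.0441). The exception in sign was Mup8 (0.16 ± 0.63, not called), whose mean scaled count was lower under DRF. Mup19 shared 99.2% of its 150-base words with other genes, Mup15 90.7% and Mup18 86.3%, so that the family is better read as a whole than gene by gene.

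Paralogs of Hsd3b5, Elovl3 and Selenbp2 did not move as 1 block. Of 13, 3 were lower, 2 were higher and 8 were not called, with a median of -0.02. The 3 that were lower were all steroid dehydrogenases, Hsd3b1 (-0.17 ± 0.03, adjusted p = 0.0002), Hsd3b3 (-0.26 ± 0.07, 0.00806) and Hsd3b2 (-0.32 ± 0.08, 0.00846). Without the livers of replicate number 1, the count of lower paralogs was 1. The value of Hsd3b1 is shrunk by the 1 added before the logarithm, since its means were 0.0521 scaled counts under DRF and 0.190 under NRF, a ratio of 3.63. For Hsd3b2 and Hsd3b3, which lie well above 1, the ratios were 1.29 and 1.17. The ratio was 11.7 for Hsd3b5, which was chosen on this contrast. Hsd3b4, Hsd3b6 and Hsd3b7, the last of bile acid synthesis, had log2 differences of -0.05, -0.03 and 0.01 and were not called. Hsd3b4 and Hsd3b6 were also near 0, so that these values are shrunk too: Hsd3b4 had means of 0.00837 under DRF and 0.0443 under NRF. With 0.1 added in place of 1, the count of lower paralogs was 4.

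Selenbp1 was higher under DRF, at 287 ± 35.7 against 237 ± 41.1 scaled counts (SD, n = 28; 0.26 ± 0.06, adjusted p = 0.00176), while Selenbp2 was lower. Within groups its r with Hsd3b5 was -0.485. Elovl5, an elongase of polyunsaturated fatty acids, was the other higher paralog (0.20 ± 0.06, adjusted p = 0.0345), and neither it nor Selenbp1 was called without the livers of replicate number 1. Without those of number 2, 3 or 4, 1 paralog was called higher. Elovl1, Elovl2, Elovl4, Elovl6 and Elovl7 had differences from -0.13 to 0.24 and were not called. Of the 13 paralogs 6 differed in rhythm between the regimens, a share near the 38.8% of all genes, Elovl5, Elovl6, Hsd3b7, Hsd3b3, Elovl1 and Hsd3b2.

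Of 15 male-biased genes other than Mup genes, 5 were lower, none was higher and 10 were not called, with a median of -0.09. The transporter Slco1a1 (-1.86 ± 0.22, adjusted p = 2.22e-08) and the antiprotease Serpina1e (-2.29 ± 0.20, 3e-12) moved most. Mean scaled counts under DRF and NRF were 21.4 and 76.7 for Slco1a1 and 249 and 1341 for Serpina1e. Hsd3b5, which was chosen on this contrast and is only described, had means of 1.01 and 11.8. Its log2 difference of -2.14 is shrunk by the 1 added before the logarithm and was -3.12 with 0.1 added. Cyp2u1 (-0.42 ± 0.08, 0.000235) and the growth factor receptor Egfr (-0.60 ± 0.17, 0.0193) moved less, and the other was Nudt7. The count of lower genes was 3 without the livers of replicate number 1 or 3, or without those of ZT0, and on the deposited values. Cyp7b1, Cyp2d9 and Cyp4a12a, which are well known male genes, had differences of -0.09, 0.10 and 0.22 and were not called.

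Of 29 female-biased genes in the table, 14 were higher under DRF, 4 were lower and 11 were not called, with a median of 0.26. Over all genes 4.14% were higher and 2.70% lower. The count of higher genes was 10 to 12 without the livers of 1 replicate number, 11 without those of ZT0 and 12 on the deposited values. Sult2a3 rose most, from 4.44 ± 3.14 under NRF to 35.3 ± 25.5 under DRF (2.60 ± 0.27, adjusted p = 1.6e-09), and Cyp2a22 rose by 1.04 ± 0.11 (3.68e-09). Cyp3a44 (-1.91 ± 0.19, 4.38e-10) and Cyp2a4 (-0.86 ± 0.10, 7.11e-09) went the other way, as did A1bg and Slc22a26. Sult2a and Cyp3a genes also belong to families of close copies.

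**Figure D5:**
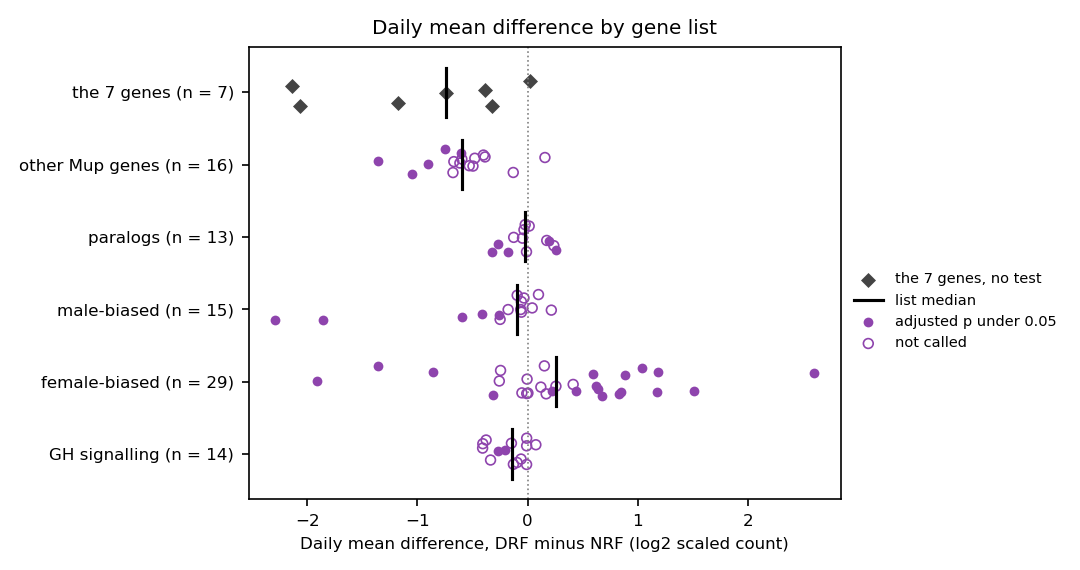
Daily mean difference (DRF minus NRF, log2) of single genes by list: diamonds are the 7 genes, which were chosen on this value and carry no test, filled circles are other genes with an adjusted p under 0.05, open circles are not called, and bars are list medians. Other Mup genes lie at a median of -0.60, male-biased genes at -0.09 and female-biased genes at 0.26.

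Of 14 growth hormone signalling genes, 2 were lower in daily mean, the hormone target Igf1 (-0.20 ± 0.06, adjusted p = 0.0406) and the prolactin receptor Prlr (-0.27 ± 0.04, 2.03e-05), and 12 were not called, with a median of -0.14, where 6.84% of all genes were called in either direction. The count of lower genes was 0 on the deposited values, and 1 without the livers of replicate number 1, 2 or 4 or of ZT24. In the 24-h rhythm, 12 of 14 differed between the regimens, against 38.8% of all genes. The peak of Stat5b (adjusted p = 1.54e-12) was at 3.33 h in NRF livers and at 14.97 h in DRF livers. Stat5a (3.05e-07) had its peak at 0.185 h and 9.78 h, in the same order. Socs2, a feedback inhibitor induced by growth hormone, had an adjusted p of 9.24e-05, and Hnf4a, a hepatocyte transcription factor, of 0.000118. Of the 7 genes described here, only Elovl3 differed in rhythm.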

How the data were processed

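RNA of 56 mouse livers was sequenced as ribosome-depleted, strand-specific paired-end libraries, per the labels, which name the molecule polyA RNA in another field. The submitters' processing notes list CASAVA 1.8, featureCounts 1.5.0-p3 and the builds mm10 and GRCm38.p6; the aligner, and whether counting used the strand, are not given in the sources used here. The authors deposited gene values under the name TPM, which are used as a score because they are not linear in reads. Multiplied by exon length (GENCODE M21, GRCm38), each follows the logarithm of 1 plus a scaled whole count. Counts were rebuilt from this form (304 to 723 counts per unit) and divided by the library factor to give scaled counts. In 12124 genes held out, 96.2% to 98.9% of values came out whole within 0.05, where 10% would by chance. Of 25415 genes, 25316 were used, and 99, Alb among them, gave whole counts at no length tried; 92 others had too many counts to judge and were used at the annotated length. All of the 7 genes but Mup3 gave whole counts in 56 of 56 libraries; Mup3, with up to 956860 counts, was whole within 0.05 in 22 and was taken under a tolerance of 0.2. Elovl3 needed a length of 1494 bases, not the annotated 1975. A filter on a mean deposited value of 0.1 removed no gene. Library totals ranged from 290567000 to 683913000 rebuilt counts. They are above the average reads per sample that the study reports and are not read numbers.

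log2(scaled count + 1) was fitted with limma 3.58.1 (R 4.3.3, moderated variance with trend) and adjusted by Benjamini-Hochberg over 25316 genes, with 24-h cosine and sine terms within a regimen (28 libraries), their interaction with regimen, the regimen term (56 libraries) and ZT24 minus ZT0 in a model of 14 groups. Fits were tested on simulated data. Within-group correlations used 100000 permutations of libraries within groups. Same-numbered libraries of different groups had a median correlation of deviations of 0.00469, and of different numbers -0.00214, so numbers do not pair livers. The 7 genes and the lists were chosen with earlier results of these data known. Named are the 7 genes, in each list up to 4 genes of lowest adjusted p in daily mean (signalling: rhythm difference), every paralog, and per gene the 3 genes of highest correlation; genes outside this rule were chosen after their values were seen. Alternatives were another pseudocount, the deposited values, other scaling, filters, and leaving out libraries, replicate numbers or times. Transcript and circular RNA values were not used here.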

Additional observations from a re-analysis of the deposited data

Results flagged for a closer look

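Among 98 groups of 4 livers (7 genes in 14 groups), 10 held a liver far from the other 3 in scaled counts by Dixon's criterion. For normally distributed values chance alone gives this in about 1 of 20 groups. Scaled counts, taken here without a logarithm, were skewed, as for Hsd3b5 under NRF (mean 11.8, median 7.29). That rate therefore does not hold here, and no excess is read from the count. The groups are not independent, since the same livers carry all 7 genes. Hsd3b5 had 4 of the 10: 70.7 in NRF ZT0 replicate 1 (the other 3 from 4.50 to 7.59), 10.04 in NRF ZT16 replicate 3 (others 1.10 to 2.10), 3.26 in DRF ZT20 replicate 1 (others 0.769 to 1.18) and, below the others, 2.16 in NRF ZT20 replicate 4 (others 6.60 to 7.34). Selenbp2 stood at 118.0 in NRF ZT0 replicate 1 (others 27.6 to 38.0), the same liver as for Hsd3b5. Mup21 stood at 9.99 in NRF ZT16 replicate 3 (others 1.72 to 2.40), again a liver that Hsd3b5 marked, and the one with the fewest rebuilt counts. Mup7 stood at 9.53 in DRF ZT4 replicate 2 (others 0.772 to 1.48) and at 7.62 in DRF ZT12 replicate 1 (others 0.402 to 1.10). Elovl3 stood at 0.881 in DRF ZT4 replicate 2 (others 0.474 to 0.528) and at 2.75 in DRF ZT20 replicate 2 (others 1.06 to 1.34).

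The 24-h rhythm of Elovl3 differed between the regimens by the test of the difference itself (limma adjusted p = 2.09e-05). The test of ZT24 minus ZT0 between regimens passed for none of the 7 genes (adjusted p of 0.884 or more) and for 1 gene of all.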

How the results depend on the processing

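The difference in rhythm of Elovl3 was called, alone of the 7 genes, under every alternative run, single livers left out included. The number of genes with a rhythm under DRF was 3 and ranged from 0 to 3 without 1 replicate number and from 2 to 4 without 1 liver; Mup3 was not called without the ZT24 or ZT0 livers (adjusted p = 0.0606 and 0.0901, limma), and Hsd3b5 was called without DRF ZT20 replicate 1 (0.0266). Under NRF the number was 1, and 3 on the deposited values, where Mup3 (0.0265) and Mup20 (0.0312) joined. ZT24 minus ZT0 under NRF called none of the 7 genes, but 1, Mup3, on the deposited values (adjusted p = 0.00209), and 0 to 1 without 1 replicate number. Genes of all with a changed daily mean numbered 1731, and 758 to 1369 without 1 replicate number (fewer libraries), 1434 to 1904 without 1 liver and 1259 on the deposited values. Pairs of genes called numbered 10, 7 on the deposited values, and 5 to 12 without 1 liver, an alternative added after seeing the data, with 5 without NRF ZT16 replicate 3. The log2 difference moved beyond the spread between replicates on the deposited values for Mup3 (-0.10) and Selenbp2 (-0.35), whose scale is itself a logarithm, and with a pseudocount of 0.1 for Hsd3b5 (-3.12). The cause of the other changes was not tested. With the replicate number as a block the counts were 3 genes under DRF, 1 under NRF, 1 for the rhythm difference, 0 for ZT24 minus ZT0 in each regimen, 1740 genes in daily mean and 10 pairs, and 15 of 56 libraries lay closest to one of their own number. The lowest livers of Mup7 and Hsd3b5 rest on only 27 and 15 rebuilt counts, and 1 rebuilt count is not 1 read. ZT24 minus ZT0 called 769 genes of all under DRF and 1960 under NRF, 1835 and 6036 on the deposited values, and as few as 119 and 156 without 1 replicate number. Genes of all that were lower under DRF numbered 683, and 335 on the deposited values.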
